A study of Homo sapiens with 4 samples.

Results

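The human miRNAs whose catalogue numbers run from 548 to 671 were read on 4 microarrays of LNCaP cells, to ask how many give signal specific to their probe and how that signal runs over a dose of androgen. They were chosen by name alone, as human perfect-match probes with a number in that range and any suffix. The choice gave 120 of the 455 human miRNA probes, among 1406 probes in all, and the highest number among the 120 was 663. LNCaP is an established human prostate adenocarcinoma cell line that has an androgen receptor. Before treatment the cells of every group spent 24 hours without androgen, in medium containing 10% charcoal-stripped serum, per the labels. The untreated group then received 0 nM, and the treated groups 0.1, 1 or 10 nM, of R1881, a synthetic androgen. From each dose 10 µg of total RNA was labelled with Cy3 and hybridised to 1 custom CombiMatrix array, so no value below has a replicate error.

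MiRNAs are short RNAs that are cut from hairpin precursors and guide Argonaute proteins to messenger RNAs, mainly through the seed, bases 2 to 8 of the mature strand. Numbers were assigned in order of discovery, and many human miRNAs of this range came from sequence-based searches of tumour and other cell libraries. Many lie in introns of protein-coding genes or in transposon-derived sequence, and many have no counterpart in mice. On this array 0 of the 120 had a mouse or rat probe of the same name, which describes the array's content and does not measure conservation.

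Each human probe had a companion probe in which 2 bases were changed, written here as its mismatch probe. Net signal means the mean signal minus the median of all 604 mismatch probes of that array, which was 371.5, 355, 295.75 and 280.25 at 0, 0.1, 1 and 10 nM. A miRNA was called detected on an array when its net signal exceeded 3 times the scaled median absolute deviation of the mismatch signals, a threshold of 148, 151, 137 and 146 in the same order. The signal was called specific when the probe also exceeded its own mismatch probe by that margin. With 1 array per dose, the precision of every level is limited by the number of arrays.

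Detected on at least 1 array were 10 of the 120 miRNAs. Specific signal on at least 1 array came from 4 of these 10, miR-574, miR-594, miR-601 and miR-638. MiR-574 was specific on all 4 arrays. MiR-568, miR-595, miR-608, miR-623, miR-637 and miR-663 were detected without specific signal. The mature strands of the 10 that the RefSeq table held (build GRCh38.p14) are shown first, since their base composition runs through the results; the seed is in capitals and each strand is written 5′ to 3′. MiR-594 and miR-595 were not matched. The array name miR-574 does not state an arm, so both arms are shown, and the name miR-663 was matched through an older symbol.
miR-574-5p: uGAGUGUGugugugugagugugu
miR-574-3p: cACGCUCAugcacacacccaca
miR-601: uGGUCUAGgauuguuggaggag
miR-638: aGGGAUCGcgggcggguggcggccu
miR-663a: aGGCGGGGcgccgcgggaccgc
miR-608: aGGGGUGGuguugggacagcuccgu
miR-637: aCUGGGGGcuuucgggcucugcgu
miR-623: aUCCCUUGcaggggcuguugggu
miR-568: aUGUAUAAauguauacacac

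These coordinates are RefSeq's on GRCh38.p14, since the files name no build. The miR-574 arms lie on chromosome 4 (38868056 to 38868078 for 5p and 38868092 to 38868113 for 3p, plus strand), within the bounds of FAM114A1 and of TLR6. MiR-601 lies at chr9:123402567-123402588 on the minus strand, within DENND1A. MiR-638 lies at chr19:10718419-10718443 on the plus strand, within DNM2, which encodes the membrane-severing GTPase dynamin 2. MiR-637 lies at chr19:3961429-3961452 on the minus strand, within DAPK3, a death-associated protein kinase gene. MiR-663a lies at chr20:26208243-26208264 on the minus strand, within the long non-coding gene MIR663AHG. MiR-608 (chr10:100975000-100975024, plus) lies within SEMA4G, miR-623 (chr13:99356146-99356168, plus) within UBAC2, and miR-568 (chr3:114316535-114316554, minus) within ZBTB20. The table gives gene bounds only, so exon and intron positions were not used here.

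No seed was shared among the 9 printed strands. Among the 99 of the 120 miRNAs with a mature sequence in the table, 2 seeds were shared by more than 1 miRNA. The seed AAAGUAA belonged to miR-548b and miR-559, and CGACCCA to miR-551a and miR-551b, and none of these 4 was detected. MiR-638 and miR-663a were the richest in G and C of the printed strands, at 80% and 90.9%, and miR-568 was the poorest, at 25%. Guanine made up 56% of miR-638, 54.5% of miR-663a, 48% of miR-608 and 47.8% of miR-574-5p, but 9.09% of miR-574-3p and 10% of miR-568.

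Of 4 epithelial markers, miR-200b, miR-200c and miR-141 gave specific signal on at least 1 array, while miR-375 was not detected. MiR-141 was not detected on the 0.1 nM array, where its net signal was 120.5. None of 4 stromal or muscle markers and none of 3 blood markers was detected. Signal differed between arrays. Over the 37 human miRNAs outside the range that were detected on all arrays, the median net signal was 750, 456, 895 and 856 at 0, 0.1, 1 and 10 nM. Mismatch probes detected numbered 4, 3, 7 and 15 of 604 in the same order, and 3 to 7 per array were listed at 0. Those at 0 were treated as missing in background correction and beside their own match probes. They were kept in the median and deviation that set net signal and threshold.

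The detected share was lower among the 120 than among the other 335 human miRNAs. Of the 120, 8.33% were detected on at least 1 array, against 20.9% of the others, and 3.33% were specific, against 17.6%. The arrays at 0, 0.1, 1 and 10 nM detected 5, 6, 5 and 8 of the 120 (4.17%, 5%, 4.17% and 6.67%). The same arrays detected 57, 41, 56 and 66 of the other 335. Specific signal was seen for 4, 1, 3 and 3 of the 120 and for 51, 36, 51 and 56 of the others. Of the detected miRNAs, 60% in the range never gave specific signal, against 15.7% outside it. These shares describe 1 array each and carry no test.

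The pairs of match and mismatch probes showed the same contrast without any threshold. In untreated cells the match probe was brighter than its own mismatch probe in 61 of 119 pairs in the range, or 51.3%, and in 69% of the other human pairs. At 1 nM the share was 46.7% in the range and 68.7% outside it. At 0.1 and 10 nM it was 70.6% and 62.4% in the range, against 77.9% and 78.1% outside. The median difference between match and mismatch signal was 4.5, 20.8, -5.88 and 18.8 in order of dose in the range, and 25.4, 36, 24.4 and 37.3 outside it.

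Mismatch probes of the range were themselves detected in 1, 1, 4 and 7 cases from 0 to 10 nM, against 1, 1, 1 and 4 for the other 335 miRNAs. The 7 belong to miR-568, miR-594, miR-595, miR-608, miR-638, miR-658 and miR-663. All but miR-658 are among the 10 detected miRNAs. The reverse of specific signal, a detected mismatch probe above its match probe by the same margin, was found for miR-568 alone in the range, at 1 and 10 nM.

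MiR-574, which is conserved in mammals, was the brightest of the 120 on every array. Its net signal was 1406, 509, 1570 and 2362 on the arrays of the untreated, 0.1 nM, 1 nM and 10 nM groups. It was lowest on the 0.1 nM array and highest on the 10 nM array. Its mismatch probe stood at 1.5, -7, 111 and 139 in the same order, so little of the signal was shared by the probe with 2 changed bases. The raw signal was 4.77, 2.48, 4.58 and 6.3 times that of its mismatch probe.

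After quantile normalisation of all match probes, the log2 ratio of miR-574 to the untreated array was -0.47, 0.31 and 0.62 at 0.1, 1 and 10 nM. At 10 nM its level was thus 1.53-fold the untreated one. Without normalisation the value at 0.1 nM was -1.34, and with the own mismatch signal subtracted the value at 1 nM was 0.00. Of 39 other human miRNAs detected on all arrays, miR-29a had the closest set of 3 ratios, with a root mean square difference of 0.12 log2. Its net signals were 906, 368, 1373 and 1782. MiR-594 came next, at 0.30.

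MiR-601, in the DENND1A gene, was specific on the arrays at 0, 1 and 10 nM. Its net signal was 161, 114, 371 and 526 from 0 to 10 nM, and the array at 0.1 nM did not detect it. Its mismatch probe stood at -13, 0, 77.8 and 123. The 1 and 10 nM arrays were the higher pair for both probes. Net signal was higher than untreated by 365 at 10 nM in the match probe and by 136 in the mismatch probe. Its log2 ratio against untreated cells was 0.78 at 1 nM and 0.96 at 10 nM, and the latter was 1.20 with median centring and 0.60 without background correction.

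MiR-594 was detected on all 4 arrays and specific on all but that at 0.1 nM. Its net signal was 260, 167, 286 and 473, and that of its mismatch probe 78.5, 93, 147 and 207. The mismatch probe was detected at 1 and 10 nM. The log2 ratio was -0.06, 0.08 and 0.39 in order of dose. The value at 0.1 nM was 0.21 with median centring, -0.54 without normalisation and -1.43 with the own mismatch signal subtracted. That at 1 nM was -0.31 after the same subtraction, so neither has a settled sign.

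MiR-638, from the DNM2 gene, was the second brightest of the 120 on the untreated array and ran the other way. Its net signal was 489, 224, 188 and 300 from 0 to 10 nM, highest in untreated cells. Only the untreated array gave it specific signal. Its mismatch probe stood at 170, 121, 201 and 281, so match and mismatch probes differed by 319 untreated, by 103 at 0.1 nM, by -13.3 at 1 nM and by 19.5 at 10 nM. The log2 ratios of the match probe to the untreated array were -0.32, -0.93 and -0.70. The first was -0.94 without normalisation, -1.13 in the authors' deposited table and -1.24 with the own mismatch signal subtracted. With that subtraction the ratios at 1 and 10 nM were both -2.50, which is the floor of that subtraction.

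The other 6 detected miRNAs never exceeded their own mismatch probes by the margin on an array that detected them. MiR-568, within ZBTB20, had net signals of 11.3, 0, 37.5 and 237 and was detected at 10 nM alone. Its mismatch probe was brighter on every array, at 15, 16.5, 320 and 578. MiR-595 was likewise detected at 10 nM alone, at net signals of 9.75, 54.5, 75.8 and 161, beside 20.5, 7.5, 71.3 and 146 for its mismatch probe. The 2 probes of miR-595 thus differed by 4.5 and 14.8 units at 1 and 10 nM.

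MiR-608, within SEMA4G, had net signals of 130, 167, 149 and 169, the flattest course of the 10. Its mismatch probe stood at 154, 160 and 195 on the treated arrays and was listed at 0 on the untreated one, where specificity could not be read. MiR-663, the GC-richest strand, had net signals of 244, 170, 78.8 and 110 and was detected on the arrays at 0 and 0.1 nM. Its mismatch probe stayed between 124 and 157 on all arrays, so at 1 and 10 nM it was the brighter of the pair. MiR-623, within UBAC2, had net signals of 94, 72.5, 117 and 217 beside 77, 78.5, 74.8 and 91.3 for its mismatch probe. At 10 nM its match probe led by 126, under the margin of 146. MiR-637, within DAPK3, was detected at 0.1 nM alone, at net signals of 77, 172, 91 and 123 beside 106, 97.5, 39.8 and 28.8.

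The remaining 110 miRNAs were not detected on any array, which means only that their net signals did not pass 137 to 151. Their median net signal was -4.88, 15.6, -6.25 and 5.13 from 0 to 10 nM. The quartiles in untreated cells were -31.9 and 28.3. The 3 miRNAs nearest below the threshold were miR-612, miR-622 and miR-576. MiR-612 reached 146 on the 0.1 nM array, where the threshold was 151, miR-622 reached 130 untreated, and miR-576 reached 130 at 0.1 nM. Their mismatch probes on those arrays stood at 96, 62.5 and -18. Nearest above it were miR-595 at 161, miR-637 at 172 and miR-608 at 169, on the arrays where each stood highest against the threshold.

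Known groups among the 120 gave no detected member. The miR-548 family, which derives from Made1 transposons and has many genomic copies, had 4 probes with net signals from -56 to 60.5, and 0 were detected. MiR-548b was the highest of them on every array, at 33.8, 60.5, 40.5 and 44.5, beside 58, 48.5, 54.8 and 40.8 for its mismatch probe. Of the imprinted chromosome 14q32 cluster, miR-654, miR-655 and miR-656 were on the array, with net signals from -46.5 to 17.3, and 0 were detected. The mismatch probe of miR-656 stood at 115 and 142 at 1 and 10 nM, beside -39 and -33.8 for its match probe.

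The signal of match and mismatch probes tended to be higher at higher GC content, but not evenly across the GC classes. A mature sequence was found for 99 of the 120, or 82.5%, and where a gene had 2 arms their GC contents were averaged, as in 33 cases. The 8 detected miRNAs with a sequence had a median GC content of 62.4%, against 45.5% for the 91 that were not detected. Of the 18 miRNAs above 60% GC, 5 were detected, 1 was specific (miR-638), and 4 had a detected mismatch probe. Of the 29 at 40% GC or less, 1 was detected (miR-568), 0 were specific, and 1 had a detected mismatch probe.

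In the class above 60% GC the median net signal of the mismatch probes was 50, 57.3, 38 and 59 in order of dose, against 22, 59, 22.1 and 44.5 for the match probes. In the class at 40% or less the mismatch medians were -26.5, -22, -12.8 and -24.3. Match signal did not rise from class to class. Its medians were 22.3, 27.8, 4.25 and 28.3 in the class over 40% to 50%. In the class over 50% to 60% they were -16, 4.25, -20.3 and 3.75. Across the 99 miRNAs, Spearman's rho of GC content with net signal was 0.28, 0.42, 0.19 and 0.26 for match probes and 0.37, 0.45, 0.25 and 0.31 for mismatch probes. With the difference between match and mismatch it was -0.02, 0.03, -0.08 and -0.03. These are descriptions across probes that share 1 array each, not tests.

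The dose comparisons set 1 treated array against the 1 untreated array, which all 3 doses share, and have no replicate check. At 10 nM, 9 of the 120 were detected on either array, and 1 of the 9, miR-568, was higher by 2-fold or more, where 3.8% of the 79 human miRNAs tested were. That call rests on an untreated level that was not above background, and it was lost without background correction and when detection on both arrays was required. Against the lowest detected level of the untreated array miR-568 was at least 1.12-fold higher, and its mismatch probe was higher by more net signal, 563 against 226. None of the 9 was lower by 2-fold, against 1.27% of the 79. The median log2 ratio of the 9 was 0.40, beside 0.00 for the 79, with 6 higher and 3 lower. MiR-568, miR-595, miR-608 and miR-623 were among the 9 only through the 10 nM array, and miR-663 only through the untreated one. Entry by detection thus favoured higher values at 10 nM. Over all 120, without that filter, the median was -0.0004, with 59 higher and 60 lower. Other settings moved the count of all human miRNAs too. With median centring or without normalisation, 7 of 79 were higher by 2-fold and 0 lower. With the own mismatch signal subtracted, 5 of 77 were higher and 5 lower. At 1.5-fold, 10 of 79 were higher and 7 lower. Over all 455, 3 were higher by 2-fold and 4 lower. Without background correction, 1 of 79 was higher and 0 lower. In the authors' table, 2 of 54 were higher and 0 lower.

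At 1 nM, 6 were tested and 0 passed 2-fold in either direction, where 1.52% of 66 human miRNAs were higher and 0% lower. Their median log2 ratio was 0.10, beside -0.04 over the 66. MiR-608 was among the 6 only through the 1 nM array, and miR-663 only through the untreated one. Over all 120, without the detection filter, the median was -0.01, with 58 higher and 62 lower. Of 66 human miRNAs, 1 was higher by 2-fold and 1 lower with median centring, and likewise without normalisation. With the own mismatch signal subtracted, 2 of 65 were higher and 4 lower. At 1.5-fold, 3 of 66 were higher and 3 lower. In the authors' table, 0 of 53 were higher and 1 lower. MiR-663, detected untreated but not at 1 nM, was at least 1.32-fold lower there and at least 1.54-fold lower at 10 nM, on the normalised scale. At 0.1 nM, 7 were tested and 0 passed 2-fold, where 0% of 65 were higher and 7.69% lower. Their median was -0.06, beside 0.04 over the 65. MiR-608 and miR-637 were among the 7 only through the 0.1 nM array, and miR-601 only through the untreated one. Over all 120, without the detection filter, the median was 0.04, with 65 higher and 55 lower. MiR-637, detected at 0.1 nM and not untreated, was at least 1.35-fold higher on the same scale. At 0.1 nM, 2 of 65 human miRNAs were higher by 2-fold and 4 lower with median centring. Without normalisation, 0 of 65 were higher and 11 lower. With the own mismatch signal subtracted, 3 of 63 were higher and 11 lower. At 1.5-fold, 7 of 65 were higher and 10 lower. In the authors' table, 0 of 38 were higher and 7 lower.

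A straight line over the 4 dose steps was fitted with limma to all 80 human miRNAs detected on at least 1 array, which leaves 2 residual degrees of freedom. Its p-values measure scatter around the line, not between cultures. Of the 80, 0 (0%) passed a Benjamini-Hochberg adjusted p of 0.05, so 0 of the 10 did. By limma's unadjusted p, 8 of the 80 and 3 of the 10 lay under 0.05. The 3 were miR-595, with a slope of 0.31 ± 0.07 log2 per step (SE), miR-601, at 0.39 ± 0.14, and miR-663, at -0.33 ± 0.11, each with a limma adjusted p of 0.494. MiR-595 was detected on 1 array. With the own mismatch signal subtracted its slope was 0.00, but differences under 50 were set to 50 there. All its differences were, so that slope was fixed by the floor and tells nothing of a trend. The slope of miR-574 was 0.26 ± 0.14 and that of miR-638 was -0.27 ± 0.11, with limma adjusted p of 0.515 and 0.498. Single arrays moved these slopes. That of miR-574 was 0.54 without the untreated array and 0.16 without the 10 nM array. That of miR-638 was -0.19 without the untreated array, the only one where it was specific, and -0.46 without the 10 nM array. With all arrays kept and the own mismatch signal subtracted, the slope of miR-638 was -0.88, with its 1 and 10 nM values at that floor. The slope of miR-601 was 0.61 ± 0.17 without the untreated array, 0.33 ± 0.05 without the 0.1 nM array and 0.39 ± 0.28 without the 10 nM array. Its limma adjusted p ran from 0.0748, without the 0.1 nM array, to 0.998 over all alternatives.

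Some other probes, picked after their values were seen, also were lowest at 0.1 nM and highest at 10 nM, as were miR-574, miR-594, miR-601, miR-568 and miR-623. The brightest glycine tRNA probe gave net signals of 299, 173, 341 and 665 in order of dose. The Bio B spike, a probe tagged neg, gave 1276, 617, 1215 and 2551. For the Bio C spike the values were 1563.25, 931.75, 1235.5 and 1889. The mouse probe of miR-669c, the only mouse or rat probe with a number in the range that was detected, had 313, 179, 296 and 419. Other signals did not have that order: another glycine tRNA probe gave 75.5, 70, 39.3 and 60.5, and the U6 probe was not above background. The 37 human miRNAs outside the range that all arrays detected had net signals that were, in the median, 0.664, 0.982 and 0.980 times the untreated ones in order of dose. The part of signals that differ between arrays in the courses of these 5 miRNAs was not tested. MiR-638, miR-663 and miR-637 did not have that order, since each was highest on an array other than that at 10 nM.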

How the data were processed

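Per the file headers, each array's deposited table lists 1 mean signal for every probe, which is a linear intensity; no background step, scanner or image software is given in the sources used here. The authors' value table, also an intensity, equals that signal minus the array's median mismatch signal, with dim cells empty. Its series design text calls values relative to untreated, but they are levels, with human column medians of 557.75, 456.25, 534.75 and 446 in order of dose.

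Here, signals were corrected with normexp (offset 50) in limma 3.58.1 (R 4.3.3), using every probe. Quantile normalisation was run over the 785 match probes of all species, and levels were read on the log2 scale. A miRNA entered a dose comparison when either array detected it. An "at least N-fold" value sets the brighter array's level against the dimmer array's lowest detected level, or against the miRNA's own level there if that is higher. The line fit used lmFit and eBayes, two-sided, and was tested on simulated data. The named miRNAs were those detected, with or without specific signal, plus the 3 nearest below the threshold. Cell type markers and the miR-548 and 14q32 groups came from lists, and the patterns closest to miR-574 from a rule. Any other miRNA named, and any member singled out within the 2 groups, was picked once its values had been seen. Other backgrounds, scalings, thresholds and the authors' table were tried as alternatives. The miRNAs, lists and tests were chosen with earlier results of these data known. Sequences are RefSeq's.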

Additional observations from a re-analysis of the deposited data

How the results depend on the processing

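No paired analysis was possible because each dose has 1 array. The count of 10 detected miRNAs was 20 at 2 scaled deviations, 4 at 5, and 22 at the 95th percentile of the mismatch probes. The authors' table had a filled cell for 9 of the miRNAs on at least 1 array and for 2 on every array (miR-574 and miR-638). Such a cell ignores the own mismatch probe, so it is nearer to detection than specificity. The count of 4 with specific signal was 10 at 2 scaled deviations, and 2 (miR-574 and miR-601) at 2 times the own mismatch. It was 4, the same miRNAs, at 5 scaled deviations, at 1.5 times the own mismatch, and against the higher of own and median mismatch, an alternative chosen after seeing the data. Counts at 2-fold moved with scaling, as did those of all human miRNAs above. At 0.1 nM the 0 became 1 with median centring (miR-637, higher), 1 without normalisation (miR-574, lower), 3 with the own mismatch subtracted, 1 at 1.5-fold and 2 in the authors' table. At 1 nM the 0 became 1 with median centring, without normalisation and in the authors' table (miR-638, lower each time), 2 with the own mismatch subtracted and 3 at 1.5-fold. At 10 nM the 1 became 3 with median centring and without normalisation (miR-568, miR-595 and miR-601), 3 with the own mismatch subtracted (miR-623 higher, miR-638 and miR-663 lower), 6 at 1.5-fold, 3 over all human miRNAs (miR-548d, miR-568 and miR-618), and 0 without background correction, among miRNAs detected on both arrays and in the authors' table. Scaling moved the median log2 ratio of the tested human miRNAs from 0.04 to 0.22 (median centring) or -0.53 (no normalisation) at 0.1 nM, and from 0.00 to 0.17 or 0.16 at 10 nM. The trend fit called 0 of the miRNAs of the range that it tested under every alternative run. These were 120 with all human miRNAs, 3 with those detected on all arrays, 9 with the own mismatch subtracted and 10 in the others, including each array left out, which leaves 1 residual degree of freedom. Of 56 alternative log2 ratios, 4 changed sign: miR-594 at 0.1 nM with median centring (0.21) and at 1 nM with the own mismatch subtracted (-0.31), and miR-663 at 0.1 nM without normalisation (-0.46) and with the own mismatch subtracted (-1.05), from 0.02. Of 92 alternative slopes, 6 did, for miR-608 (0.0438 without normalisation, and -0.289 to 0.0626 with an array left out) and miR-637 (0.0283 without normalisation, 0.197 with the own mismatch subtracted, and -0.380 to 0.0853 with an array left out), where leaving out the untreated array gave the lowest value and leaving out the 10 nM array the highest. The cause was not tested. Signal over background limits what can be read: levels under a net signal of 137 to 151, depending on the array, fell below the threshold chosen here. They were not called apart from the mismatch probes.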
